A study of Nicotiana tabacum with 12 samples.

Results

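Leaves of the tobacco line labelled YOE, an overexpression line, were compared with leaves of the wild type KY at the seedling stage. The members were 6 of the 12 RNA sequencing libraries of the study, 3 labelled YOE_1 to YOE_3 and 3 labelled KY_1 to KY_3, and they were chosen by those labels. The other 6 libraries came from the wild type K326, a flue-cured tobacco cultivar, and from a knockout line labelled Q18. All were leaves of Nicotiana tabacum, and no treatment is given for any group. The study asked how NtCISZOG acts on leaf chlorophyll. The sources used here do not give the promoter of the transgene, how many independent lines lie behind YOE or how many plants went into a library. The labels call the YOE genotype overexpression without naming its background, while the design text names a line KY-OE-31 and the raw reads of the YOE libraries carry the name G31, and KY was therefore taken as the reference.

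Enzymes of the cis-zeatin O-glucosyltransferase type place a sugar on cis-zeatin, a cytokinin. Cytokinins are hormones of cell division and leaf greenness, and a sugar on the side chain puts the hormone in a stored form that does not signal. In leaves cytokinins delay yellowing, act on chloroplast development, sugar transport and nitrogen use, and stand in mutual antagonism with jasmonate, the hormone of wounding and insect defence. Tobacco is an allotetraploid, so most of its genes have a near-identical partner copy, and reads can be split or moved between such copies. Levels of single copies are therefore less certain than their sums.

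Levels are given as scaled TPM, a length-corrected share of transcripts that was divided by a factor for each library (0.722, 0.516 and 0.867 in YOE, 0.735, 0.851 and 0.735 in KY). A gene was tested when it reached 1 in at least 3 of the 12 libraries, and it was called at a limma adjusted p under 0.05. Light-harvesting chlorophyll proteins, the defining genes of green leaf, summed to 23765 to 49121 in these 6 libraries. Replicates spread more in YOE than elsewhere, with a median SD of 0.233 over genes on the log2 scale against 0.135 in KY, 0.170 in K326 and 0.170 in Q18. Whether the replicates are separate plants is not stated. The p-values reflect a spread within groups that was shared over all 12 libraries, and that spread may be technical. They do not carry the wider spread of YOE in full. In whole leaves a change in the share of cells of a type and a change of RNA per cell cannot be told apart.

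The transgene itself could not be followed, because no description in the table names a zeatin O-glucosyltransferase. K326 was looked at for genes that were on in YOE and off in KY, or the reverse. There were 93 genes at 2 or more in all YOE libraries and at 0.2 or less in all KY libraries, and 42 of them were listed at 0 in every KY library. Of the 93 genes, 77 stood at 2 or more in all K326 libraries and 0 stood at 0.2 or less there. In the opposite direction 18 genes were on in KY and off in YOE. Of these, 11 were at 0.2 or less in all K326 libraries and 0 were at 2 or more. At these genes the libraries labelled YOE went with K326. The genes were picked by a difference between YOE and KY, so genes at which YOE went with KY could not appear. The matching set of genes on or off between YOE and K326 was not counted. Every difference from KY below is drawn between groups that also differ in this way, and the line and the background cannot be told apart in it. Whether labels were exchanged between libraries was not tested. Values for K326 are therefore set beside those for KY, and a gene is said to stand apart when all 3 YOE libraries lay outside the range of all 9 other libraries.

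Of 31064 tested genes, 10876 (35.0%) were called between YOE and KY, 5506 higher in YOE (17.7%) and 5370 lower (17.3%). At a fold change of at least 2 there were 2200 higher and 1423 lower genes, and at 8-fold or more 134 and 34. Higher genes made up 50.6% of the calls, against 37.0% with the values as deposited (6.76% of tested genes higher and 11.5% lower) and 44.3% after quantile normalization. The scaling moved the median log2 change over all genes from -0.11 to -0.006. Genes called and standing apart from all 9 other libraries numbered 1526 above (4.91%) and 1183 below (3.81%). Counts of such genes in the lists below are to be read beside these shares. Against K326, 1738 genes were higher in YOE (5.59%) and 1468 lower (4.73%), in a comparison that uses the same YOE libraries. The plot of gene lists sets each list beside the share over all tested genes.

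**Figure D1:**
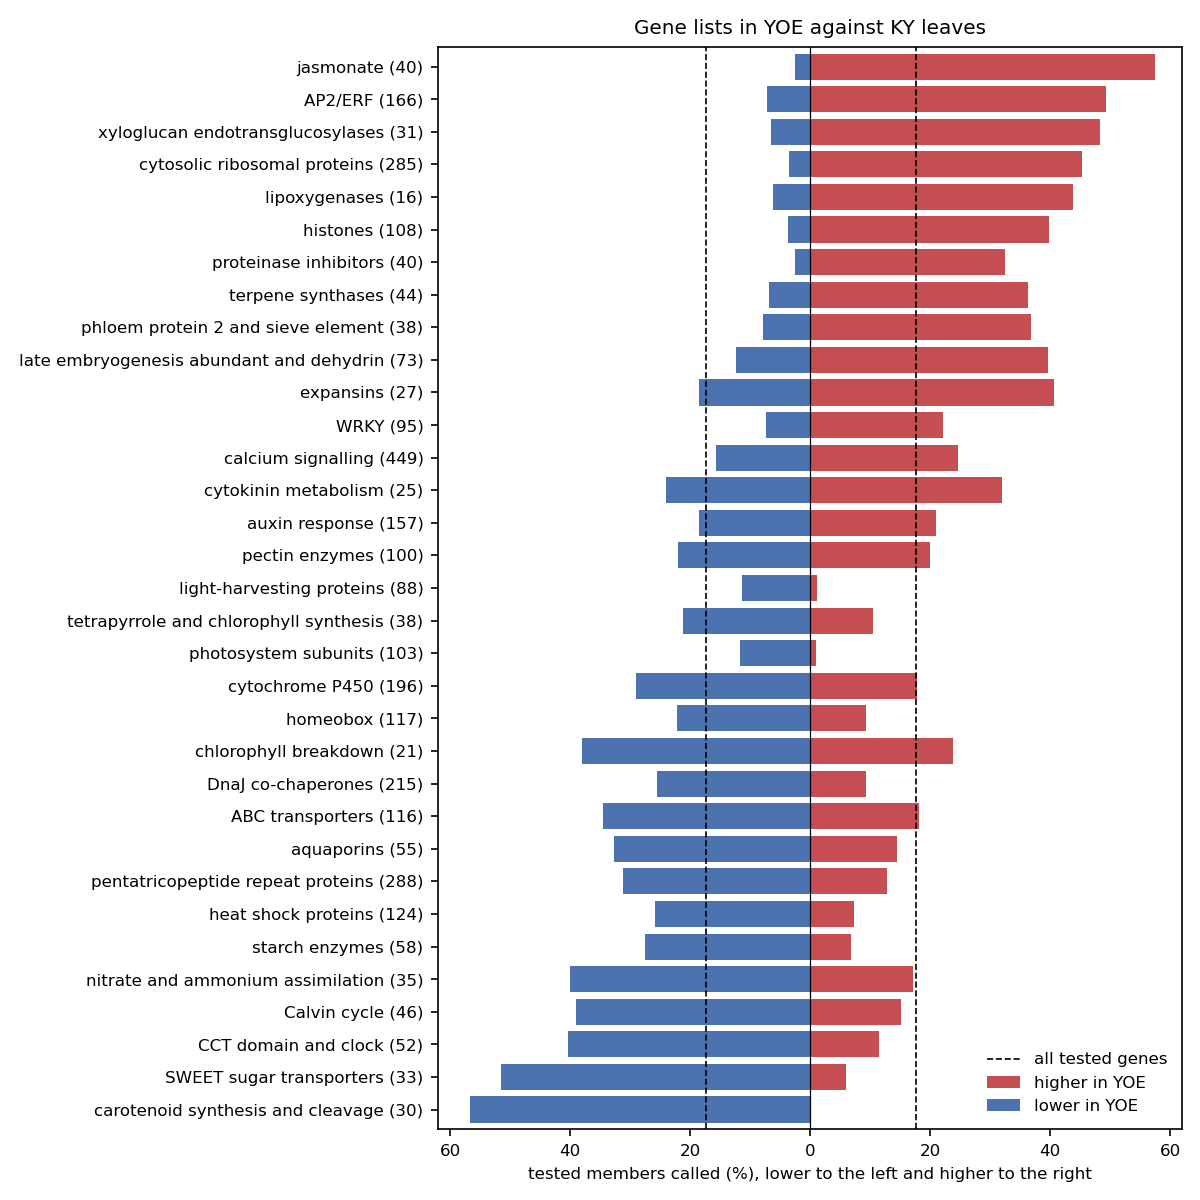
Share of the tested members of each gene list that were called higher (to the right) or lower (to the left) in YOE than in KY, in percent, with the number of tested members in parentheses and the shares over all tested genes (17.7% and 17.3%) as dashed lines. Jasmonate genes (57.5% higher) stand at the top and carotenoid genes (56.7% lower) at the bottom.

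Among the 12 genes with the largest rises that stood apart were 2 phloem protein 2-like genes. Nitab4.5_0006525g0010, a phloem protein 2-like lectin, a kind of protein found in sieve tubes and companion cells, had 58.1, 311 and 409 in YOE. It had 4.93, 7.45 and 7.55 in KY, and 6.01 to 20 in K326 (log2 change against KY 4.70, SE 0.67, adjusted p = 0.00044). YOE replicate 1 was far below the other 2 YOE libraries, and it lay above all 9 other libraries by the choice of these genes. A second gene of this kind, Nitab4.5_0000595g0040, had 79.6, 216 and 198 in YOE against 4.29, 4.21 and 7.36 in KY (log2 change 4.63, SE 0.53, adjusted p = 0.00012).

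A GH3 gene, Nitab4.5_0009125g0010, had 27.9, 79.6 and 57.7 in YOE and 0.667, 1.06 and 0.272 in KY (log2 change 4.98, SE 0.31, adjusted p = 1.3e-06). GH3 enzymes join amino acids to auxin or jasmonate. K326 lay between the groups at 19.6 to 25.0. For a pectinesterase inhibitor gene, Nitab4.5_0001383g0170, K326 lay near KY. That gene had 11.1, 91.4 and 38.6 in YOE, 0.0680, 0.564 and 0 in KY and 0.353 to 1.91 in K326. Its log2 change was 4.90 against KY and 4.23 against K326 (adjusted p = 0.00016 and 0.00458). A chlorophyllase gene, Nitab4.5_0011519g0020, encoding an enzyme that cuts the phytol tail from chlorophyll, had 12.4, 30.4 and 50.2 in YOE. It stayed between 0.299 and 0.646 in KY and between 0.986 and 1.68 in K326 (log2 change against KY 4.29, SE 0.43, adjusted p = 5.2e-05).

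The others of the 12 were an arabinogalactan peptide, 2 EF-hand calcium-binding proteins, a glyoxalase-like gene, a cytochrome P450, a Tify gene and a WRKY transcription factor. The arabinogalactan peptide Nitab4.5_0000540g0040, of a family of cell surface glycoproteins, was listed at 0 in all KY libraries and had 26.2, 30.7 and 35.1 in YOE, with 2.40 to 5.54 in K326. The P450 gene Nitab4.5_0009702g0010 had 2.44, 35.4 and 78.3 in YOE and at most 0.163 in KY and 0.283 in K326. YOE replicate 1 was the lowest YOE library in both of these genes. In the WRKY gene Nitab4.5_0002568g0030 the same order appeared, at 14.5, 56.8 and 108 in YOE against 0.898 to 2.46 in KY and 4.67 to 6.57 in K326.

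Among the falls of genes standing apart, the largest was in a gene of the pyruvate, phosphate dikinase type, Nitab4.5_0000059g0230, an enzyme that makes phosphoenolpyruvate. It had 12.5, 6.26 and 5.47 in YOE and 143, 146 and 148 in KY, with 15.4 to 21.3 in K326 (log2 change -4.09, SE 0.23, adjusted p = 5.4e-07). A glutaredoxin gene, Nitab4.5_0001943g0010, of a family of small thiol enzymes, had 1.70, 1.42 and 2.04 in YOE and 24.3 to 29.3 in KY (log2 change -3.39, SE 0.14, adjusted p = 5.4e-08). In both genes K326 lay much nearer to YOE than to KY. In all 12 falls the means of K326 and Q18 lay below that of KY. They lay above YOE by the choice of these genes, and ranking by the fall against KY favours genes high in KY.

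A ferric reductase-type gene, Nitab4.5_0004176g0030, was also called against K326. It had 92.6, 53.1 and 35.0 in YOE, 293 to 306 in KY and 131 to 224 in K326 (log2 changes -2.40 and -1.57, adjusted p = 0.0002 and 0.0121). A heavy metal-associated domain gene, Nitab4.5_0006134g0100, had 3.09, 2.35 and 1.14 in YOE, while KY and K326 overlapped at 13.2 to 15 and 8.64 to 14.6 (log2 changes -2.27 and -1.92). The CAP domain gene Nitab4.5_0014031g0010, of the pathogenesis-related protein 1 family, had 0.0277 to 0.407 in YOE and 0.776, 8.99 and 19.1 in KY. Its call was lost without any of the YOE libraries and without KY replicate 2 or 3.

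**Figure D2:**
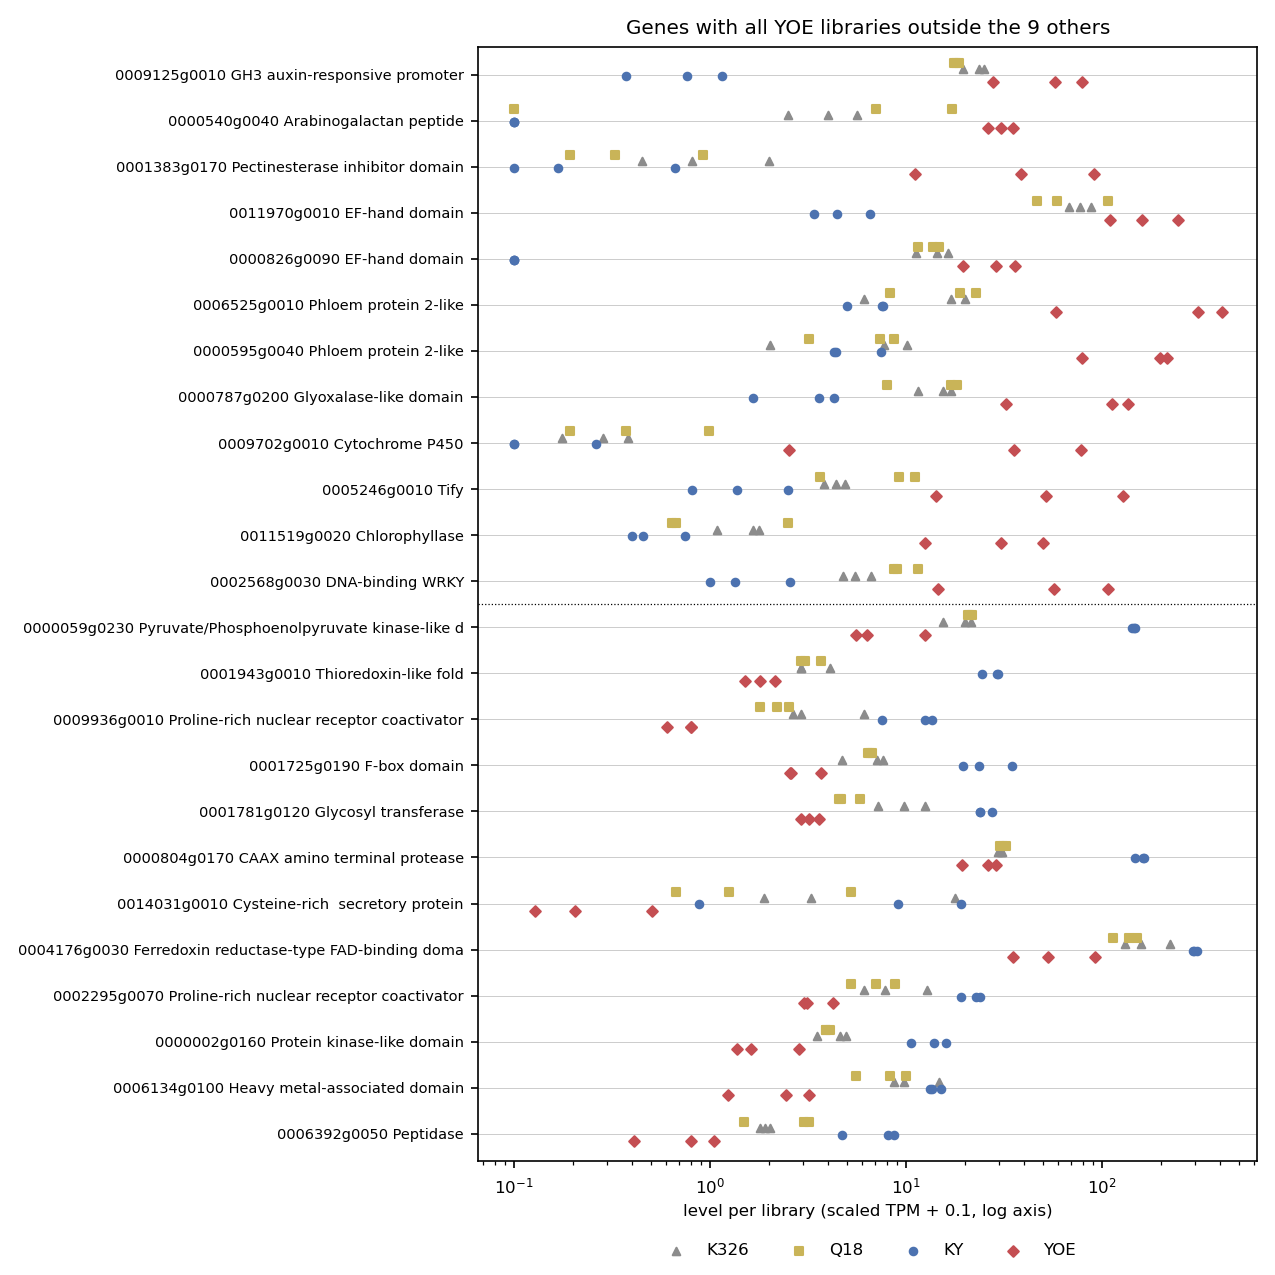
Level of 24 genes in each of the 12 libraries, in scaled TPM with 0.1 added on a log axis, so that a value of 0 sits at 0.1. The genes were picked so that the 12 above the dotted line have all 3 YOE libraries above the 9 others and the 12 below it have them below. In the falls the means of K326 and Q18 lie below that of KY.

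Jasmonate genes were higher as a group, and their list is the top row of the plot of gene lists. Jasmonate is made from membrane lipids by lipoxygenases and allene oxide cyclase, among others. JAZ proteins, which carry a Tify domain, are repressors of the response whose own genes jasmonate switches on. The list was matched on the Tify domain, so not every Tify gene in it need be a JAZ gene. Of 70 genes with these domains 40 were tested, and 23 were higher (57.5%, against 17.7% of all tested genes) and 1 lower. Their median log2 change was 1.17, and 21 stood apart above all other libraries (4.91% of all tested genes did). The summed level was 1291, 2448 and 2437 in YOE, 365, 475 and 415 in KY, and 529, 685 and 640 in K326. YOE replicate 1 was the lowest YOE library and still lay above all other libraries. Against K326, 20 were higher and 1 lower, where 5.59% and 4.73% of all tested genes were.

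Both allene oxide cyclase genes were higher. Nitab4.5_0007287g0040 had 83.1, 297 and 246 in YOE against 13.8, 18.8 and 17.7 in KY and 32.7 to 38.2 in K326 (log2 change 3.38, SE 0.37, adjusted p = 9.7e-05). Nitab4.5_0004118g0110 had 104, 300 and 185 in YOE against 19.4, 27.6 and 23.7 in KY and 36.1 to 41.6 in K326 (log2 change 2.89, SE 0.31, adjusted p = 8.4e-05). Neither gene's YOE values overlapped any other group. Of 16 tested lipoxygenases 7 were higher and 1 lower. The lipoxygenase Nitab4.5_0002898g0030 had 72.4, 112 and 128 in YOE and 15.2, 29.6 and 21.7 in KY (log2 change 2.19, SE 0.28, adjusted p = 0.00021). The only lower member, Nitab4.5_0007252g0010, had 0.291 to 0.872 in YOE and 1.02 to 1.14 in KY (adjusted p = 0.0492), and its call was lost without any KY library or without YOE replicate 2 or 3.

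Tify genes made up 14 of the 23 higher genes. Of 33 members 22 were tested and 0 were lower, with a median log2 change of 1.38, and their sum was 5.67 times that in KY (1252 ± 392 against 221 ± 43.1, SD, n = 3; 347 ± 50.7 in K326). Nitab4.5_0005246g0010 had 14.1, 51.6 and 128 in YOE and 0.708, 2.41 and 1.28 in KY (log2 change 4.31, SE 0.63, adjusted p = 0.00054). The rise was more even in Nitab4.5_0000073g0270, at 147, 214 and 175 in YOE against 7.65, 23.6 and 15.3 in KY (log2 change 3.55, SE 0.34). Here the YOE replicates differed less than the KY replicates did in proportion. Nitab4.5_0001531g0050 spread widely, at 9.68, 56.4 and 169 in YOE and 1.03 to 3.17 in KY (log2 change 3.95, SE 0.90, adjusted p = 0.00629). Over the 23 higher jasmonate genes, YOE replicate 1 was the lowest of the YOE libraries in 22. The number called higher was 21 to 23 when any of the 6 libraries was left out.

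**Figure D3:**
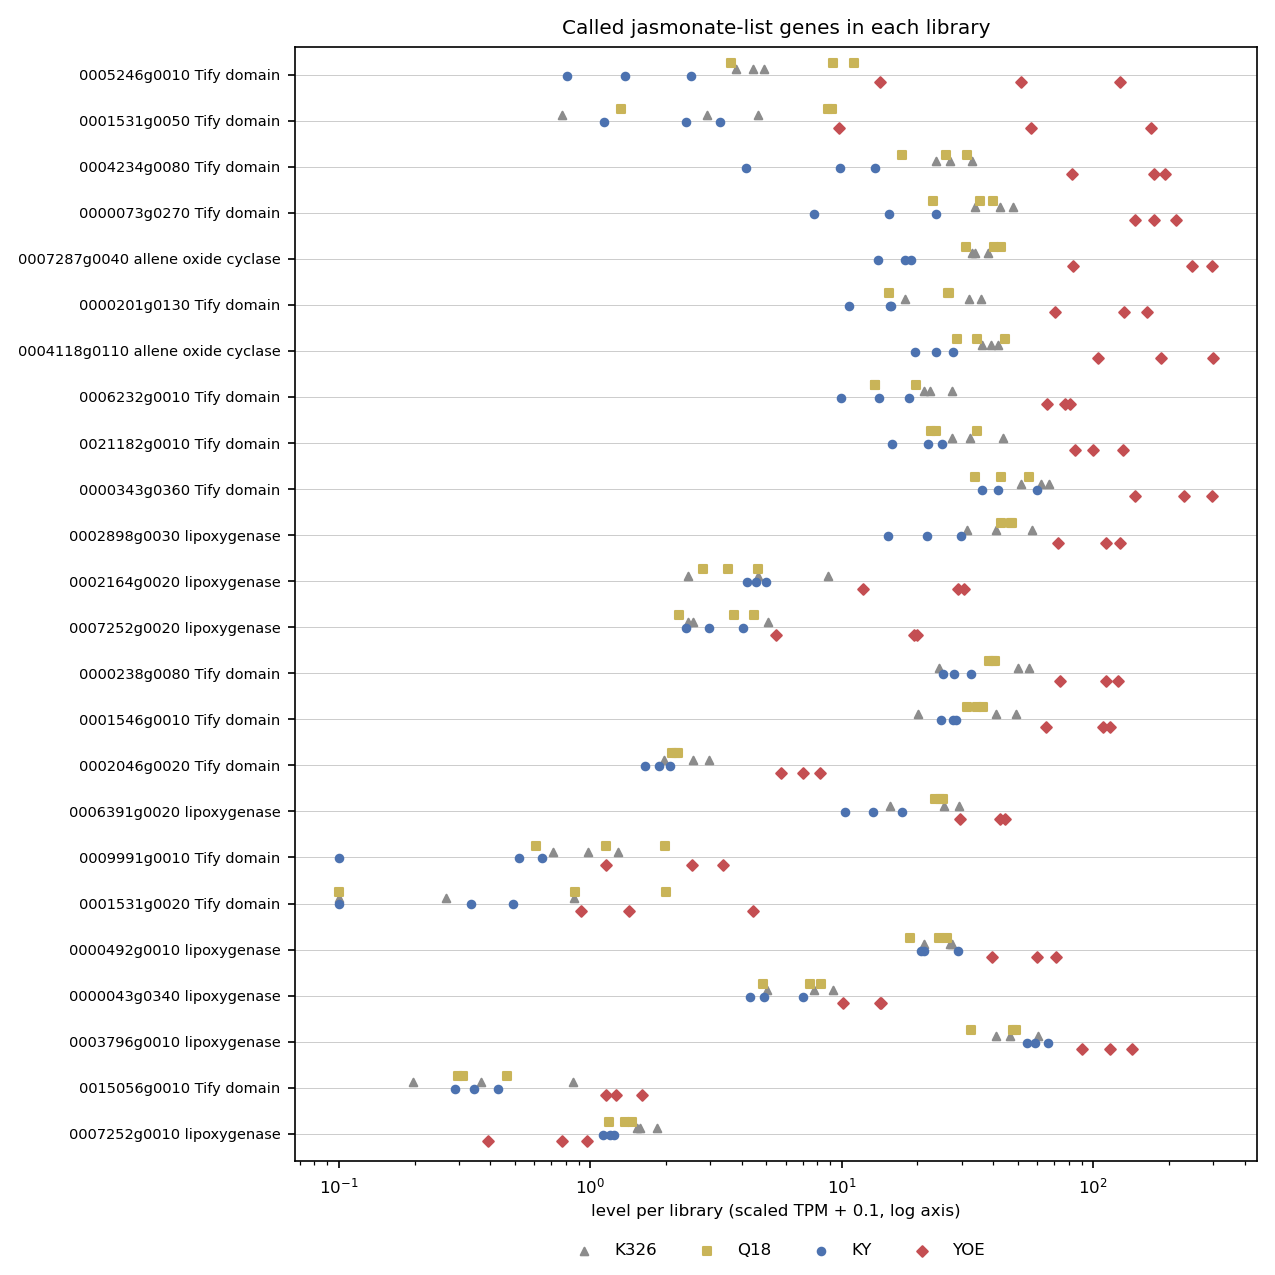
Level of the 24 called genes of the jasmonate list in each library, in scaled TPM with 0.1 added on a log axis, ordered by their log2 change. In 21 of the 23 higher genes the YOE libraries lie above all 9 others.

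Terpene synthases make volatile and defensive terpenoids, and of 44 tested (183 in the table) 16 were higher and 3 lower. The counts were 10 and 2 as deposited, and 1 was lower without KY replicate 1. Of the higher genes 11 stood apart, where 4.91% of all tested genes did. Their sum was 661, 734 and 874 in YOE against 389 to 453 in KY and 527 to 560 in K326, with no overlap. Nitab4.5_0009590g0020 had 6.39, 19.3 and 27.5 in YOE and 0.490 to 4.14 in KY (log2 change 2.77, SE 0.62, adjusted p = 0.006). Proteinase inhibitors, many of them proteins that block the gut enzymes of insects, had 13 of 40 tested members higher and 1 lower (8 and 1 as deposited), and 2 or 3 lower without KY replicate 1 or YOE replicate 1 or 3. The lower gene, a potato inhibitor I-type gene, Nitab4.5_0003154g0030, had 8.29 to 27.6 in KY and 0 to 0.553 in YOE, with 0 to 2.31 in K326. Chitinases and pathogenesis-related proteins, many of which act on pathogens, had 9 higher and 13 lower of 68 tested, shares (13.2% and 19.1%) close to those of all genes. With the values as deposited they were 5 and 12, and without KY replicate 1 the higher genes were 5.

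AP2/ERF factors, which include ethylene, cold and drought regulators, had 82 of 166 tested members higher and 12 lower (50 and 9 as deposited), with a median log2 change of 0.70. Their sum was 3007, 4168 and 3638 in YOE, 1546, 2225 and 1725 in KY and 2698 to 2903 in K326. K326 thus lay between the groups, and 18 members were higher and 2 lower in YOE than in K326. The member with the highest mean among those higher, Nitab4.5_0002211g0060, had 207 to 280 in YOE and 58.1 to 105 in KY, but 174 to 205 in K326. WRKY factors, regulators of pathogen and stress responses, had 21 of 95 tested members higher (22.1%, against 17.7% of all tested genes) and 7 lower. With the values as deposited 10 were higher and 4 lower, and 4 were lower without KY replicate 1 or 2. The sums overlapped with K326 (1382 to 2008 in YOE, 835 to 1326 in KY, 1250 to 1800 in K326).

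Xyloglucan endotransglucosylases cut and rejoin the xyloglucan that ties cellulose fibres, and 15 of 31 tested genes (60 in the table) were higher and 2 lower (12 and 1 as deposited, and 0 or 1 lower without any library other than YOE replicate 1), with a median log2 change of 0.78. Of these 11 stood apart above all other libraries. Nitab4.5_0001675g0050 had 35.8, 31.4 and 29.5 in YOE, 1.76, 6.02 and 3.35 in KY and 5.57 to 11.7 in K326 (log2 change 2.92, SE 0.35, adjusted p = 0.00017). Its YOE replicates were close to each other and clear of all others. Expansins, which loosen walls without cutting them, had 11 of 27 tested members higher and 5 lower (6 and 3 as deposited), and their sum did not separate the groups, at 276, 383 and 632 in YOE and 230 to 276 in KY. Nitab4.5_0003323g0020 had 13.3, 30 and 21.9 in YOE against 2.06 to 3.49 in KY and 3.18 to 4.27 in K326 (log2 change 2.52, SE 0.30, adjusted p = 0.00015).

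The 5 expansins that fell did so with K326 at the level of YOE, and without any KY library 3 were called. Nitab4.5_0012890g0020 had 3.70 to 3.84 in YOE, 32.3 to 42.7 in KY and 1.89 to 7.68 in K326 (log2 change -2.95 against KY, -0.06 against K326). Pectin enzymes and their inhibitors, which shape the matrix between cells, had 20 higher and 22 lower of 100 tested, and with the values as deposited 12 and 21. The number lower was 12 or 13 without any KY library. Of the pectin genes 13 stood apart above all other libraries and 0 below (4.91% and 3.81% of all tested genes did). Nitab4.5_0000072g0600, a pectinesterase inhibitor gene, had 90, 116 and 100 in YOE, 9.00 to 12.4 in KY and 43.2 to 67.8 in K326 (log2 change 3.14, SE 0.24, adjusted p = 5.4e-06).

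Histones, the proteins that package DNA and are made in quantity when cells replicate, had 43 of 108 tested genes higher and 4 lower (26 and 3 as deposited), and 23 stood apart. The core histones carried this, with 16 of 27 H2A genes, 9 of 18 H2B, 6 of 19 H3 and 8 of 15 H4 genes higher, while linker H1 genes had 4 higher and 3 lower of 29. Nitab4.5_0000977g0020, an H2A gene, had 56.8, 78.6 and 67.3 in YOE, 16.6 to 20.3 in KY and 25.5 to 35.4 in K326 (log2 change 1.81, SE 0.19, adjusted p = 5.7e-05). In 37 of the 43 higher genes YOE replicate 3 was the lowest YOE library, and the histone sum overlapped between YOE and KY (2399 to 3409 and 2369 to 2505). Without YOE replicate 3 or KY replicate 2 or 3 the lower histone genes were 2, and 1 without KY replicate 1. Cyclins and replication licensing factors had 17 higher (20.2%) and 18 lower (21.4%) of 84 tested, near the 17.7% and 17.3% of all tested genes. With the values as deposited 6 were higher and 15 lower.

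Cytosolic ribosomal proteins had 129 of 285 tested genes higher (45.3%, against 17.7% of all tested genes) and 10 lower, by small amounts. The median change of the higher genes was 0.59 on the log2 scale, and 7 of them reached 2-fold. With the values as deposited the count was 18 higher and 6 lower, and after quantile normalization 104 and 11. K326 overlapped YOE in the sum (9013 to 11366 and 9977 to 11050, against 8355 to 8481 in KY), and against K326 6 genes were higher and 5 lower.

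Phloem protein 2-like genes encode lectins of the sieve tube and of defence, among others. Of 38 tested genes on the phloem list (60 in the table) 14 were higher and 3 lower (8 and 2 as deposited, and 5 lower without YOE replicate 3), and 9 stood apart. The sum was 685, 1371 and 1528 in YOE, 625, 525 and 634 in KY and 368 to 421 in K326. YOE replicate 1 lay only just above KY. Some of these genes were already named above, and 3 genes with close numbers on 1 scaffold, Nitab4.5_0000595g0010, Nitab4.5_0000595g0030 and Nitab4.5_0000595g0040, all rose. Nitab4.5_0000595g0010 had 54.0, 35.0 and 20.1 in YOE, where replicate 1 was the highest, and 0.799 to 3.17 in KY (log2 change 3.76, SE 0.43, adjusted p = 0.00012). The description also covers F-box proteins with a phloem protein 2 domain, which tag other proteins for breakdown. Of 22 tested genes described in both ways 8 were higher and 2 lower, and of 11 without an F-box 6 were higher and 1 lower, so the list is no measure of phloem tissue alone.

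SWEET genes encode carriers that let sugar out of cells and so feed the phloem. Of 33 tested (69 in the table) 17 were lower (51.5%, against 17.3% of all tested genes) and 2 higher, and 9 of the lower genes stood apart below all other libraries. The sum was 676, 432 and 472 in YOE, 1221, 1296 and 1174 in KY and 816, 1168 and 1201 in K326, with no overlap. Against K326, 16 were lower and 2 higher. The count lower than KY was 14 with the values as deposited.

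The abundant members moved alike. Nitab4.5_0004728g0030 had 222, 135 and 123 in YOE, 457, 502 and 440 in KY and 262 to 398 in K326 (log2 changes -1.59 against KY and -1.16 against K326, adjusted p = 0.00047 and 0.0133). Nitab4.5_0009485g0020 had 171, 104 and 90.1 in YOE, 335 to 371 in KY and 226 to 331 in K326. In Nitab4.5_0001332g0120 the values were 52.5, 35.1 and 31.8 in YOE, 104 to 107 in KY and 75.9 to 115 in K326. YOE replicate 1 was the highest of the YOE libraries in all 3 genes. The genes that rose were Nitab4.5_0003746g0030 and Nitab4.5_0007383g0030, the latter at 7.89, 7.72 and 10.0 in YOE, 0.327 to 0.776 in KY and 2.02 to 3.08 in K326 (log2 change 2.62, SE 0.23, adjusted p = 2.2e-05). Starch enzymes had 4 higher and 16 lower of 58 tested (1 and 16 as deposited).

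**Figure D4:**
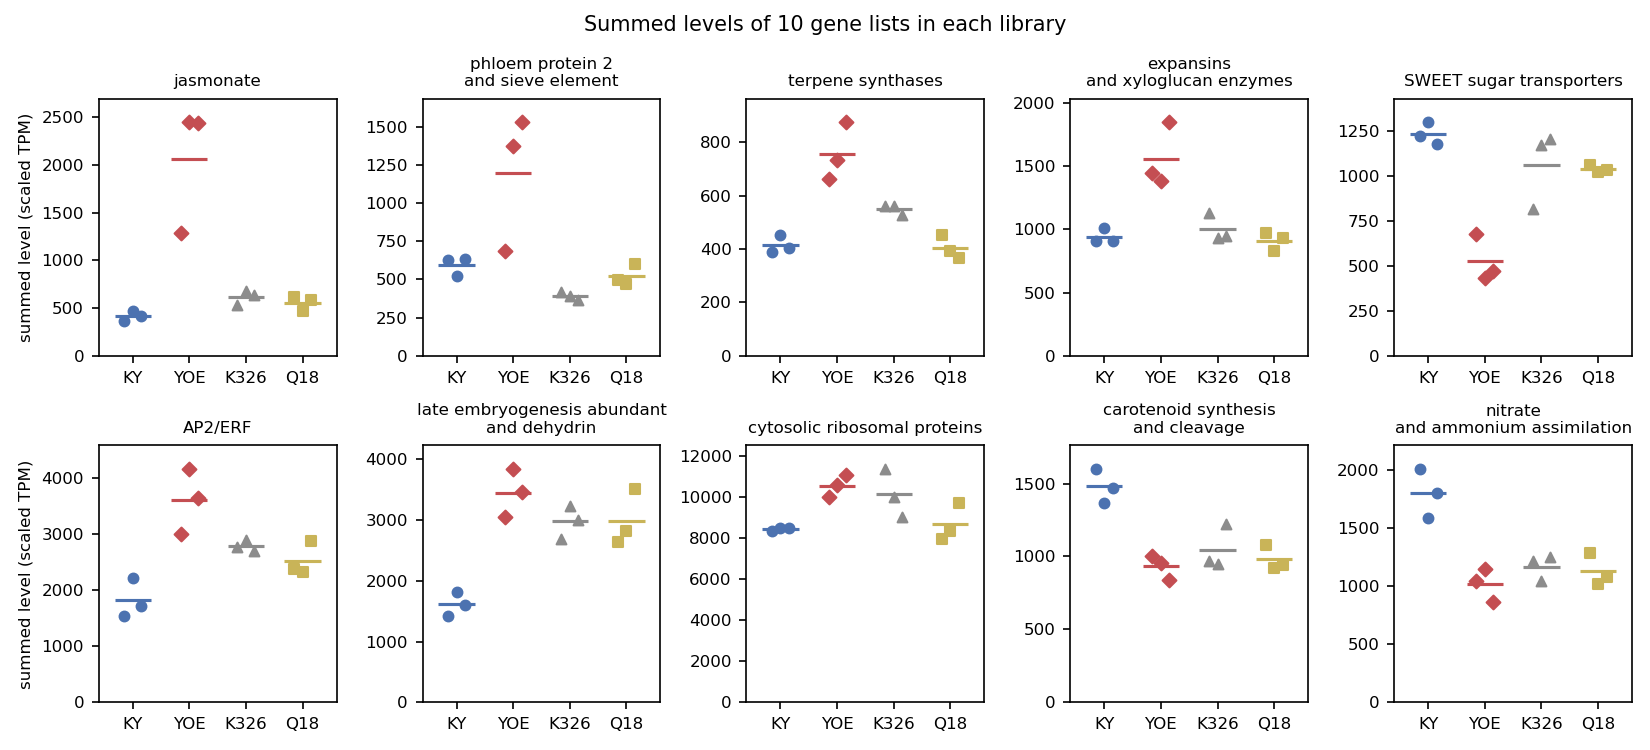
Summed level of 10 gene lists in each library, in scaled TPM on axes that start at 0, with a line at each group mean. In the upper row the YOE libraries lie outside all 3 other groups, and in the lower row the means of K326 and Q18 lie between those of YOE and KY.

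Few genes of light harvesting, the photosystems or the Rubisco small subunit were called. Light-harvesting proteins had 10 of 88 tested genes lower and 1 higher, photosystem subunits 12 of 103 lower and 1 higher, and Rubisco small subunits 0 of 10 lower and 1 higher. These shares lie below those of all tested genes. The median log2 changes were -0.34 for light-harvesting proteins and -0.37 for photosystem subunits, against -0.006 over all genes. The light-harvesting sum was 31264, 44494 and 23765 in YOE and 35844 to 49121 in KY, which overlap. Leaving out KY replicate 1 reduced the lower light-harvesting genes to 6 and the lower photosystem genes to 5 (7 without KY replicate 3). With the values as deposited 19 and 22 were lower, above the share of all tested genes in that setting (11.5%). Neither summed level then overlapped between YOE and KY. The photosystem II gene PsbR, Nitab4.5_0001791g0030, stood out with 58.8, 40.1 and 48.7 in YOE, 189 to 226 in KY and 67.0 to 154 in K326 (log2 change -2.06, SE 0.26, adjusted p = 0.00021). Calvin cycle enzymes, which fix carbon dioxide, had 18 of 46 lower than in KY (39.1%, against 17.3% of all tested genes) and 7 higher. Their median log2 change was -0.53 (24 lower and 4 higher as deposited). Against K326, 0 were lower and 1 higher. The sum was 20291 to 28753 in YOE, 25750 to 39038 in KY and 17607 to 21597 in K326, so YOE overlapped both. With the values as deposited the sums of YOE and KY did not overlap.

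Magnesium chelatase makes the first intermediate that leads to chlorophyll alone, and of its 5 tested genes 2 were higher and 2 lower. Their sum was 230, 282 and 157 in YOE, 485, 337 and 422 in KY and 138 to 216 in K326. YOE thus lay below KY without overlap, also with the values as deposited, and overlapped K326. An H subunit gene, Nitab4.5_0005195g0040, had 64.9, 73.6 and 40 in YOE and at most 0.306 in KY, with 39.5 to 64.7 in K326. Another, Nitab4.5_0010636g0020, had 83.6, 95 and 48.6 in YOE, 253 to 371 in KY and 50.2 to 82.7 in K326. Neither gene was called between YOE and K326 (log2 changes 0.16 and 0.12, adjusted p = 0.782 and 0.864). Over the other tetrapyrrole genes 4 were higher (10.5%) and 8 lower (21.1%) of 38, where 17.7% and 17.3% of all tested genes were. The counts were 2 and 8 as deposited, with 5 lower without KY replicate 1 and 2 higher without KY replicate 3 or YOE replicate 2. Chlorophyll synthase Nitab4.5_0000261g0130, which adds the phytol tail, had 30.7 to 33.2 in YOE, 41.0 to 48.9 in KY and 28.5 to 34.3 in K326 (log2 change -0.50, SE 0.12, adjusted p = 0.00715).

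Chlorophyll breakdown genes split. Of 21 tested, 5 were higher and 8 lower (3 and 9 as deposited), and each count fell to 3 and 5 without some single libraries. The members that rose furthest stood apart from all groups. They were the chlorophyllase gene described above and a Staygreen gene, Nitab4.5_0011435g0010, of a family that removes magnesium from chlorophyll. The latter had 3.67, 15.6 and 31.1 in YOE, 1.14 to 1.86 in KY and 1.17 to 3.24 in K326 (log2 change 2.45, SE 0.55, adjusted p = 0.00568). The members that fell furthest were pheophorbide a oxygenase-type genes, which open the chlorophyll ring. Nitab4.5_0002162g0210 had 39.2, 37.3 and 29.1 in YOE and 102 to 106 in KY, with 31.4 to 43.6 in K326 (log2 change -1.55, SE 0.14, adjusted p = 2.8e-05).

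Carotenoid genes called against KY were all lower in YOE. Carotenoids protect chlorophyll and are the source of abscisic acid and strigolactones. Of 30 tested genes 17 were lower (56.7%, against 17.3% of all tested genes) and 0 higher (12 and 0 as deposited). Against K326, 2 were lower and 2 higher. The sum was 1002, 955 and 839 in YOE against 1369 to 1601 in KY and 948 to 1225 in K326. The falls were modest, from -0.41 to -1.37 on the log2 scale, and 0 stood apart from all 9 other libraries. A phytoene synthase-type gene, Nitab4.5_0000091g0360, at the entry, had 155, 101 and 98.0 in YOE, 205 to 286 in KY and 84.0 to 149 in K326. Phytoene desaturase Nitab4.5_0006338g0050 followed, at 34.0 to 39.3 in YOE, 55.6 to 58.8 in KY and 29.5 to 43.4 in K326 (log2 change -0.67, SE 0.15, adjusted p = 0.00583). Without KY replicate 1 or 3 the count lower was 11.

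Nitrate reductase turns nitrate into nitrite, nitrite reductase makes ammonium, and glutamine and glutamate synthases take it into amino acids. Of 35 tested genes 14 were lower and 6 higher (15 and 2 as deposited). The sum was 1043, 1151 and 862 in YOE, 2012, 1585 and 1803 in KY and 1046 to 1248 in K326. Nitrate reductase-type genes were among the clearest. Nitab4.5_0023821g0010 had 53.2, 42.7 and 41.4 in YOE, 143 to 170 in KY and 73.8 to 80.6 in K326, called against both (log2 changes -1.76 and -0.76, adjusted p = 5.2e-06 and 0.00937). The gene Nitab4.5_0002857g0010 repeated this with 25.8 to 31.3 in YOE, 83.3 to 103 in KY and 40 to 51.4 in K326.

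Of 9 tested ammonium transporters 5 were lower than in KY and 1 higher, and 4 were lower than in K326. Nitab4.5_0000841g0070 had 13.1, 5.37 and 4.61 in YOE, 28.8 to 35.3 in KY and 28.1 to 35.5 in K326 (log2 changes -2.07 and -2.09, adjusted p = 0.00035 and 0.00456). KY and K326 overlapped, and every YOE library lay below both. Nitab4.5_0005734g0020 had 24.6, 21.9 and 10.1 in YOE, 60 to 85.0 in KY and 33.0 to 59.1 in K326 (log2 changes -1.93 and -1.28). The higher gene, Nitab4.5_0008594g0010, had 15.2, 16.1 and 27.1 in YOE and 8.94 to 13 in KY (log2 change 0.71, adjusted p = 0.0384). Over the whole nitrogen list 10 genes were lower than in K326 and 1 higher. Without KY replicate 1 the genes of the list higher than in KY were 3.

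CCT-domain factors with phytochromes and cryptochromes, which set flowering, the clock and light responses, had 21 of 52 tested genes lower and 6 higher (15 and 1 as deposited, 12 and 13 lower without KY replicates 1 and 3, and 3 higher without KY or YOE replicate 3). The B-box gene Nitab4.5_0009734g0010 had 13.7, 15.5 and 8.67 in YOE, 54.6 to 68.0 in KY and 16.2 to 37.4 in K326 (log2 change -2.26, SE 0.28, adjusted p = 0.00021). Another, Nitab4.5_0001982g0010, had 8.62 to 13.8 in YOE, 38.3 to 38.9 in KY and 7.60 to 10.6 in K326. Levels of clock genes depend on the hour of harvest, which the sources used here do not give.

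DnaJ co-chaperones, partners of the Hsp70 folding machine, had 55 of 215 tested genes lower (25.6%) and 20 higher (37 and 6 as deposited). Of them 21 stood apart below all other libraries, where 3.81% of all tested genes did. Nitab4.5_0001781g0190 had 242, 250 and 201 in YOE, 377 to 394 in KY and 263 to 296 in K326 (log2 change -0.75, SE 0.13, adjusted p = 0.00168). Heat shock proteins had 32 of 124 lower (25.8%) and 9 higher (20 and 1 as deposited), yet their sum overlapped (3285 to 5193 in YOE, 4492 to 4983 in KY), with YOE replicate 3 above all KY libraries. Without KY replicate 1, 2 or 3 the higher heat shock genes were 5, 3 and 3, and without KY replicate 1 or 3 the higher DnaJ genes were 12 and 13.

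Late embryogenesis abundant proteins and dehydrins, which protect cells that lose water, had 29 of 73 tested genes higher and 9 lower (19 and 9 as deposited, and 5 and 4 lower without KY replicates 1 and 3). The dehydrin Nitab4.5_0000588g0250 had 1185, 1674 and 1364 in YOE, 246 to 359 in KY and 771 to 1151 in K326 (log2 changes 2.25 and 0.55, adjusted p = 4.7e-05 and 0.138). YOE and K326 thus differed from KY by far more than from each other. Calcium-binding and calmodulin-type genes had 111 of 449 tested members higher (24.7%) and 70 lower (15.6%), where 17.7% and 17.3% of all tested genes were. With the values as deposited the counts were 50 and 50. Without KY replicate 3 the number higher was 72. The EF-hand gene Nitab4.5_0011970g0010 had 110, 246 and 161 in YOE, 3.32 to 6.49 in KY and 67.7 to 87.6 in K326 (log2 change against KY 4.88, SE 0.34, adjusted p = 3.1e-06).

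Cytokinin genes themselves gave a mixed picture against KY. Of 60 genes for synthesis, activation and breakdown 25 were tested, and 8 were higher and 6 lower. The balance turned with the values as deposited (4 and 5) and after quantile normalization (5 and 6), and the count was 5 higher without KY replicate 1 or 3 and 3 lower without YOE replicate 2. Against K326, 6 were higher and 1 lower, where 5.59% and 4.73% of all tested genes were. The sum was 371, 425 and 388 in YOE, 343 to 352 in KY and 250 to 274 in K326. With the values as deposited the sums of YOE and KY overlapped. LOG enzymes release the active base from its nucleotide, and here they went both ways. Nitab4.5_0001297g0040 had 87.4, 95.6 and 69.3 in YOE, 35.5 to 42 in KY and 23.3 to 33.4 in K326 (log2 changes 1.06 and 1.49, adjusted p = 0.00138 and 0.00313). Nitab4.5_0008463g0020 had 33.1, 71.1 and 61.2 in YOE, 10.3 to 15.2 in KY and 3.24 to 11.1 in K326 (log2 change 2.01, SE 0.48, adjusted p = 0.00782). Another LOG gene, Nitab4.5_0001939g0020, fell, at 30 to 46.5 in YOE against 58.3 to 69.1 in KY and 50.8 to 61 in K326.

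Cytokinin dehydrogenase destroys the hormone. Nitab4.5_0005779g0060 had 2.60, 9.79 and 7.26 in YOE, 0.885 to 1.28 in KY and 0.641 to 1.12 in K326 (log2 change 1.73, SE 0.36, adjusted p = 0.00399). A gene of the same type, Nitab4.5_0001861g0120, had 5.20, 11.8 and 9.80 in YOE, 2.34 to 3.23 in KY and 0.671 to 3.16 in K326. The genes that rose therefore included both activating and degrading enzymes, and 5 members of the list stood apart above all other libraries and 0 below. Response regulators of the phosphorelay, an output of cytokinin signalling, had 14 higher (23.7%) and 10 lower (16.9%) of 59 tested. Over all tested genes the shares were 17.7% and 17.3%. The counts were 5 and 5 as deposited, and 12 and 13 after quantile normalization. The higher regulators were 7 to 9 when any library other than YOE replicate 1 was left out, and 15 without that one.

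The UDP-glycosyltransferase family, to which zeatin O-glucosyltransferases belong, was examined for members that stood above every other library. Of 340 genes 121 were tested, and 20 were higher (16.5%) and 37 lower (30.6%), where 17.7% and 17.3% of all tested genes were. With the values as deposited the counts were 10 and 30. In the main fit 8 stood apart above and 7 below, where 4.91% and 3.81% of all tested genes did. The largest rise among the 8 was in Nitab4.5_0004111g0010, with 2.17, 51.0 and 55.3 in YOE, 0.317 to 1.06 in KY and 0.585 to 1.66 in K326 (log2 change 3.69, SE 0.84, adjusted p = 0.00647). YOE replicate 1 was hardly above the rest. More even were Nitab4.5_0000826g0270, at 2.92, 3.47 and 3.21 in YOE and listed at 0 in every KY library, and Nitab4.5_0001740g0020, at 8.25, 11.1 and 15.8 in YOE against 1.58 to 1.70 in KY and 6.51 to 8.09 in K326. Among the 5 with the largest rises the highest level was that of Nitab4.5_0000132g0530, with 35.7, 64.6 and 54.9 in YOE, 11.6 to 20 in KY and 13 to 23.5 in K326 (log2 change 1.61, SE 0.33, adjusted p = 0.0039). None of the sources used here says whether any of these is the transgene.

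The changes against KY were uneven over the assembly. Gene identifiers name the scaffold, a stretch of assembled sequence, and of 891 scaffolds with at least 8 tested genes the median had 15.4% of genes higher and 15.4% lower. At least 50% of the genes were higher on 23 scaffolds and lower on 22. All 13 tested genes of scaffold 0000733 were higher, among them a magnesium chelatase gene with a von Willebrand factor domain, Nitab4.5_0000733g0210, and all 13 were under 1 in all KY libraries. The median log2 change there was 2.34 against KY and -0.26 against K326. On scaffold 0000826, which holds the UDP-glycosyltransferase gene Nitab4.5_0000826g0270 named above, 16 of 17 genes were higher, and on scaffold 0001049 10 of 11 were.

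The scaffolds with the most lower genes differed in kind. On 0001526, 0002589 and the scaffold of the pheophorbide a oxygenase gene Nitab4.5_0002162g0210 the lower genes numbered 8 of 10, 6 of 8 and 7 of 10, with median log2 changes of -0.59, -0.53 and -0.91, and YOE was low and not absent. On all of these 6 scaffolds the median log2 change against K326 lay between -0.26 and 0.02.

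**Figure D5:**
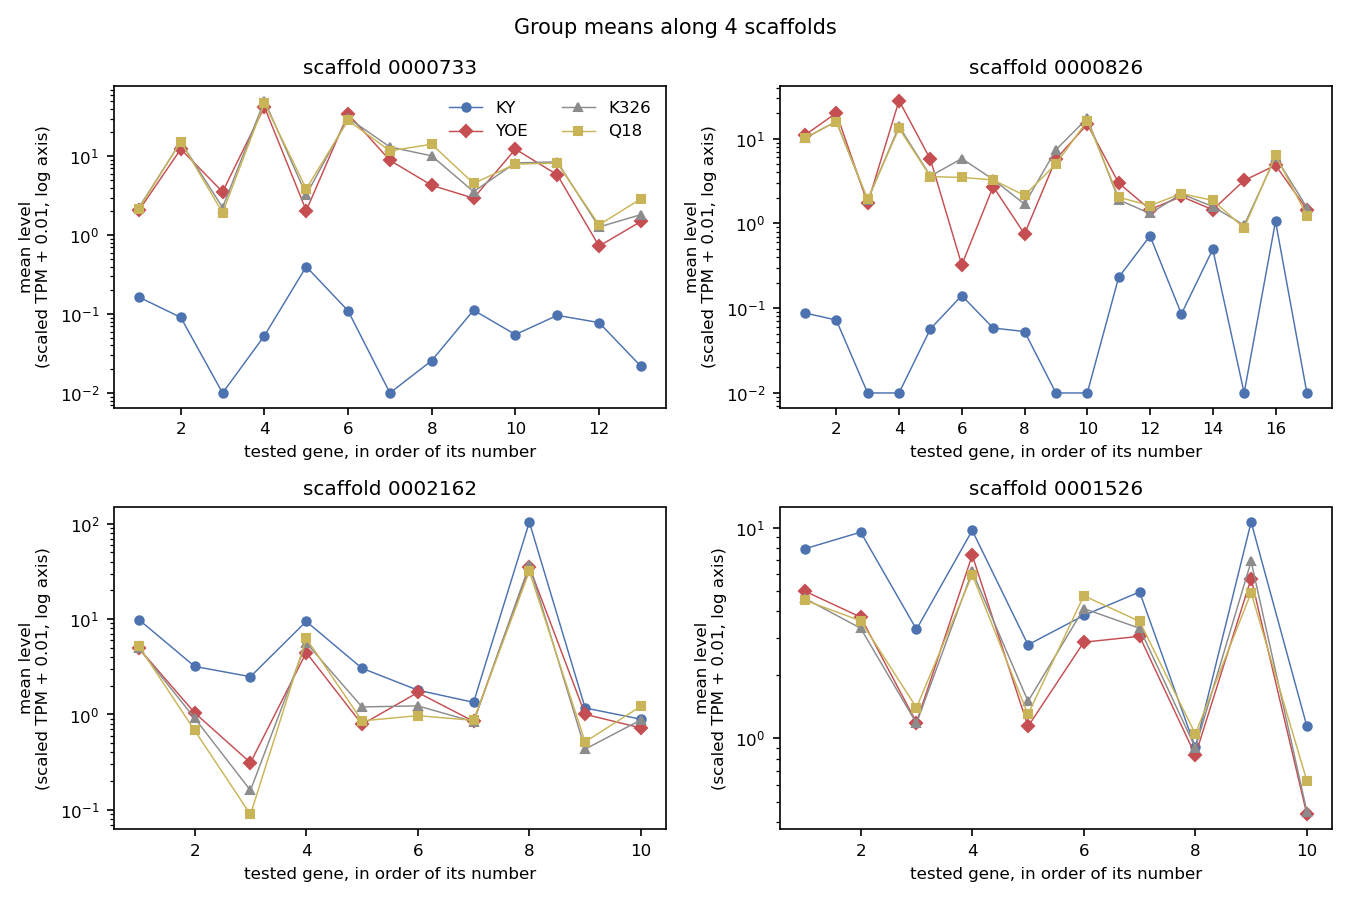
Mean level of each tested gene along 4 scaffolds for each group (n = 3), in scaled TPM with 0.01 added on a log axis, with genes in the order of their numbers. On scaffolds 0000733 and 0000826 KY lies far below the 3 other groups for nearly every gene, and on the other two, in the lower row, KY lies above them for most genes.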

How the data were processed

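RNA of seedling leaves was sequenced in 4 groups of 3 libraries. Salmon and StringTie are named, without versions, in the submitters' processing notes, and no genome build is given there. The deposited values were taken as TPM made by the authors. The header names no unit, FPKM cannot be told apart, and depth is unknown. Of 69500 genes, 19757 were at 0 in all libraries and 19827 are described as Unknown. Descriptions are InterPro names from the table. No library pair held identical values.

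A scale factor for each library was the median ratio over the 20130 genes that reached 1 in every library. The test was limma 3.58.1 (trend, robust, in R 4.3.3) on log2(value + 1), for genes reaching 1 in 3 or more libraries, with 4 group means over 12 libraries and Benjamini-Hochberg adjustment at 0.05. Fold changes on this scale understate changes of low genes. Gene lists (67) came from patterns matched to descriptions. The comparison, lists and named genes were chosen with earlier results of these data known, and patterns were tightened after descriptions had been read.

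Named were the 12 largest rises and falls outside all 9 other libraries with a mean of at least 5 and an informative description, the 5 largest without that condition, the called member with the highest mean of each list, up to 5 UDP-glycosyltransferases, all magnesium chelatases and 3 scaffolds per direction. Not every gene so chosen is printed. Others, such as the allene oxide cyclase, SWEET, LOG, nitrate reductase-type and ammonium transporter genes and further members of the lists, were chosen after their values were seen. On simulated data with 31064 genes, the fit recovered 58 of 100 genes changed 2-fold and 95 of 100 changed 4-fold, and 6 of 159 calls were false. The changed genes were few and had means above about 5, and each gene had the same normal spread in all 4 groups. In the data 35.0% of genes were called, many genes were lower and YOE spread more. The simulated rates therefore do not carry over to this comparison. Tables and figures were made with pandas 2.3.3 and matplotlib 3.10.9 (Python 3.11.15; numpy 2.4.6).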

Additional observations from a re-analysis of the deposited data

How the results depend on the processing

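The 10876 genes called in YOE against KY became 5721 with the values as deposited, 6240 for genes with a mean of at least 5, 3623 with a fold of at least 2 and 3206 with K326 as reference. The genes higher in YOE than KY numbered 2118 as deposited, 3194 with the mean of at least 5 and 2200 with the fold, and 1738 were higher than in K326. The genes lower in YOE than KY numbered 3046 with the mean of at least 5 and 1423 with the fold, and 1468 were lower than in K326. Leaving out 1 library gave 7499 to 11073 calls, 3871 to 5623 higher and 3628 to 5450 lower. The replicate number as a block gave 10598 calls, but same-numbered YOE and KY libraries did not deviate together (correlations 0.0917, 0.0078 and 0.0204), so the numbers do not pair them. Quantile normalization gave 10706, no filter 11032, a pseudocount of 0.1 gave 10832 and the 6 libraries alone 8469.

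The 3206 genes called in YOE against K326 moved more: 12143 as deposited, 1983 with a mean of at least 5, 1321 with a fold of at least 2 and 179 in the 6 compared libraries alone, and 868 to 5265 without 1 library, from 868 without YOE replicate 2, 1014 and 1349 without K326 replicates 3 and 2, to 5265 without YOE replicate 1 (the fits without K326 libraries were chosen after seeing the data). They rest on the spread shared over 4 groups. The cause of these shifts was not tested.

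Of 132 named genes called against KY, 104 kept the call without each library in turn and 25 lost it with the values as deposited. Directions turned with K326 as reference for the following log2 changes: Nitab4.5_0000091g0360 (0.09), Nitab4.5_0000201g0200 (0.68), Nitab4.5_0000212g0010 (-0.66), Nitab4.5_0000261g0130 (0.07), Nitab4.5_0000428g0040 (-0.11), Nitab4.5_0000847g0060 (0.15), Nitab4.5_0000929g0030 (0.17), Nitab4.5_0001248g0010 (-0.07), Nitab4.5_0001478g0040 (0.32), Nitab4.5_0001663g0090 (0.30), Nitab4.5_0001982g0010 (0.17), Nitab4.5_0002758g0040 (-0.05), Nitab4.5_0004008g0070 (-0.11), Nitab4.5_0005031g0050 (-0.55), Nitab4.5_0006237g0030 (0.55), Nitab4.5_0006338g0050 (0.06), Nitab4.5_0008892g0020 (0.05) and Nitab4.5_0010636g0020 (0.12). Nitab4.5_0006237g0030, a magnesium chelatase I subunit that was not called, ranged from -0.39 to 0.02 without 1 library. Depth is unknown, so no limit of detection is given for genes listed at 0.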

Other observations

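Several large families outside the groups above also had uneven shares of called genes in YOE against KY. Pentatricopeptide repeat proteins, which process RNA in chloroplasts and mitochondria, had 90 of 288 tested genes lower and 37 higher (69 and 8 as deposited), and 21 to 23 higher without KY replicate 1 or 3 or YOE replicate 3. In K326 they lay at the level of YOE, with a sum of 1479 ± 30.9 against 1457 ± 45.0 in YOE and 1751 ± 52.1 in KY (SD, n = 3). Nitab4.5_0000114g0090 had 30, 27.3 and 22.3 in YOE and 58.1 to 64.3 in KY (log2 change -1.19, SE 0.13, limma adjusted p = 0.00011). ABC transporters, pumps driven by ATP, had 40 of 116 lower and 21 higher (22 and 7 as deposited, and 26 lower without KY replicate 1 or 3). An abundant member, Nitab4.5_0006520g0010, had 169, 117 and 117 in YOE, 356 to 435 in KY and 211 to 261 in K326. Cellulose synthases had 13 of 24 tested genes higher and 5 lower (6 and 5 as deposited), while their sums overlapped (338 to 510 in YOE, 364 to 378 in KY). Transposon-derived genes had 29 of 96 lower and 8 higher (16 and 6 as deposited), with 15 and 17 lower without KY replicates 1 and 2. Homeobox factors had 26 of 117 lower and 11 higher (20 and 4 as deposited, and 4 to 7 higher without KY replicate 1 or 3 or YOE replicate 2 or 3), and 9 stood apart below all other libraries.

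Aquaporins, channels for water and small solutes, went both ways, with 8 of 55 tested genes higher and 18 lower (5 and 16 as deposited), and 7 standing apart above and 5 below. Nitab4.5_0003155g0010 had 257, 468 and 436 in YOE, 105 to 119 in KY and 156 to 192 in K326 (log2 change 1.70, SE 0.23, limma adjusted p = 0.00031). Nitab4.5_0001615g0140 had 193, 187 and 106 in YOE, 335 to 382 in KY and 159 to 239 in K326 (log2 change -1.18, adjusted p = 0.00538). Cytochrome P450 genes had 35 of 196 higher (17.9%, near the 17.7% of all tested genes) and 57 lower (29.1%, against 17.3%). Of them 15 stood apart above and 25 below, where 4.91% and 3.81% of all tested genes did. With the values as deposited 24 were higher and 48 lower. Auxin response genes had 33 of 157 higher (21.0%) and 29 lower (18.5%), near the 17.7% and 17.3% of all tested genes. With the values as deposited 16 were higher and 19 lower. The GH3 gene Nitab4.5_0021741g0010 had 187, 213 and 271 in YOE and 106 to 114 in KY.

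Among the 5 largest falls of all, the CAP domain gene Nitab4.5_0003771g0010 had 0.0830 to 2.75 in YOE and 6.21, 143 and 246 in KY, and its call was lost without YOE replicate 1 or KY replicate 2 or 3.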
